A study of Gallus gallus with 18 samples.

Results

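The genes described here build, anchor or cut the extracellular matrix, and they were taken from a chicken heat stress experiment by their symbols alone. They comprise the collagen chains (COL, a number and A), the laminin chains (LAMA, LAMB and LAMC), the matrix metalloproteinases (MMP) and the tissue inhibitors of metalloproteinases (TIMP). Of 13009 genes with a probe set annotated to a single gene, 70 met this rule, on 183 of 27168 such probe sets. Each gene is represented by its probe set with the highest mean over the 18 arrays. By role, 9 are fibrillar collagens, 9 are collagens of basement membranes, 10 are fibril-associated collagens, 4 are transmembrane collagens and 9 are other collagens. Laminins contribute 5 alpha, 4 beta and 2 gamma chains, and the proteases and inhibitors are 9 secreted proteases, 5 membrane-bound proteases and 3 TIMPs. The last member, COL4A3BP, is no collagen: it encodes the ceramide transfer protein and entered through the spelling of its symbol.

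RNA was measured on Affymetrix chicken arrays in 6 groups of 3 arrays each, from 3 tissues. The heat groups were birds held at 40 ± 1 °C for 3 h, with the time label T3, and the control groups were birds at 28 ± 1 °C, with the time label T0; the birds were 8 days old and had all been housed at the lower temperature until then. The tissues were brain, taken as cerebral cortex, liver and leg muscle. The labels name 24 birds, 12 male and 12 female, without saying which birds lie behind which array or whether RNA was pooled, so the p-values measure the spread between these arrays. Heat and time of sampling cannot be told apart, and the breed is not given in the sources used here.

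Fibrillar collagens form the ropes of connective tissue, which fibroblasts secrete as triple helices. Basement membranes are sheets of type IV collagen and laminin, a cross-shaped molecule of 1 alpha, 1 beta and 1 gamma chain, under epithelia and around vessels, muscle fibres and the brain surface. Matrix metalloproteinases cut these proteins and TIMPs block them. In brain most of this matrix lies in the meninges and around vessels, in liver along the sinusoids and portal tracts, and in muscle around every fibre. The roles named below are known mainly from mammals.

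Array medians ran between 91.4 and 99.1 intensity units in brain, between 79.6 and 83.6 in liver and between 82.4 and 87.6 in muscle, and arrays of one group correlated at 0.976 to 0.993. The tissues carried their own markers: 11 of 13 hepatocyte markers were highest in unheated liver, 12 of 12 skeletal muscle markers in unheated muscle and 8 of 9 neuronal markers in unheated brain. Transcripts of other tissues stood apart on some arrays. The median hepatocyte marker on brain heat 1 reached 28.1% of its unheated liver level, against 0.373% to 0.538% on the brain control arrays. Brain heat 2 and heat 3, at 0.936% and 2.07%, also lay above the brain controls. On muscle heat 3 the median hepatocyte marker reached 30.1%, against 1.41% to 7.42% on the muscle control arrays. Skeletal muscle markers on the brain heat arrays reached 1.14% to 1.86% of their muscle level, against 0.519% to 0.546% on the brain control arrays. The brain count is also given without heat 1. For heat against control in muscle, all means, differences and counts include heat 3, and no count without it is given. Readings of single muscle arrays are printed in replicate order, with heat 3 last of the heat arrays.

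Without heat, most matrix genes had their highest level in leg muscle. Levels in the 9 control arrays were compared on the log2(intensity + 16) scale by limma, with Benjamini-Hochberg adjusted p under 0.05 as the threshold, for the 46 members above the median probe set. Against brain, 35 members were higher in muscle and 6 were lower, where 41.3% and 28.6% of all probe sets tested were. Against liver, 34 were higher in muscle and 2 lower, where 33.6% and 26.3% of all were. The median member lay 1.58 above brain and 1.42 above liver in log2 units, against 0.18 and 0.10 for all probe sets. Liver and brain were closer, with 20 members higher in liver and 16 lower, where 37.4% and 32.2% of all were.

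Muscle exceeded both other tissues for 29 of the 46 members (19.9% of all probe sets), brain exceeded both others for 6 (21.3%) and liver for 2 (18.7%). The intensity limit of 91.5 applied to the mean over the 9 control arrays, so a high level in 1 tissue could carry a gene past it. Of the 29, only COL4A5 lay above it in muscle alone. LAMA2 lay below it in liver, as did LAMA4, COL4A6 and COL20A1, which were chosen after their values were seen. Their muscle level thus helped them past it. The 29 included 7 of 8 fibrillar collagens, 4 of 6 basement membrane collagens, COL6A1, COL6A2, COL6A3 and COL8A1, and both tested laminin beta chains. COL1A1, one of the chains of type I collagen, averaged 16760 ± 2229 intensity units in muscle, against 1373 ± 239 in liver and 1353 ± 324 in brain (SD, n = 3 arrays each, after scaling to a common trimmed mean). COL6A1, a chain of the type VI microfibrils that surround muscle fibres, averaged 6408 ± 1406 in muscle, 2139 ± 271 in liver and 145 ± 38.6 in brain (SD, n = 3), a log2 difference of 5.33 between muscle and brain (limma adjusted p = 1.0e-09).

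The laminin alpha chains were distributed unevenly. LAMA2, the alpha chain of the muscle basement membrane, averaged 2156 ± 222 in muscle, 25.3 ± 0.991 in liver and 133 ± 26.8 in brain (SD, n = 3). LAMA5, an alpha chain of epithelial and vascular basement membranes, was instead at 291 ± 72.4 in muscle and 360 ± 32.0 in liver, with no call between them (limma adjusted p = 0.15), against 164 ± 26.5 in brain. The 6 members highest in brain were COL24A1, a minor fibrillar collagen, the transmembrane collagens COL17A1 and COL23A1, the membrane proteases MMP16 and MMP24, and the inhibitor TIMP2. MMP24, a protease known from neurons, averaged 627 ± 72.9 in brain, against 50.6 ± 15.0 in liver and 105 ± 17.3 in muscle. COL23A1, MMP16 and MMP24 averaged 20.5, 36.4 and 50.6 in liver, below the limit of 91.5, so their brain level helped them past it. The 2 highest in liver were the proteases MMP7 and MMP17. COL17A1, COL23A1, MMP7, MMP16 and MMP24 were chosen after their values were seen.

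**Figure D1:**
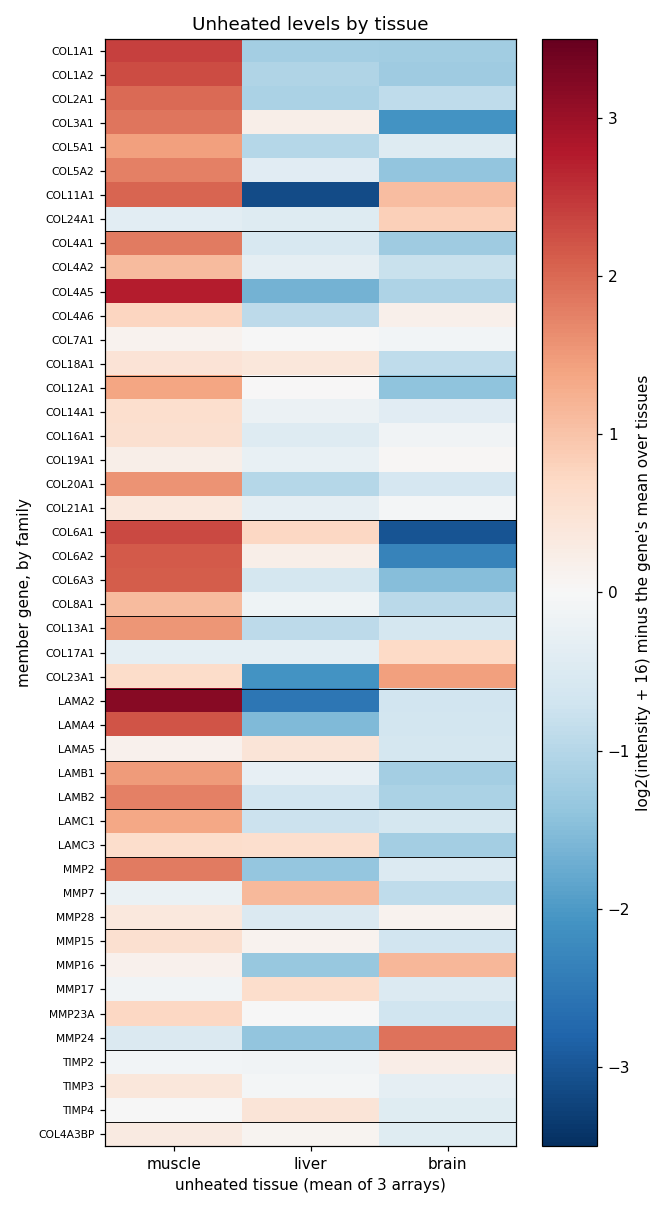
Each row is a tested member and each column an unheated tissue; colour gives log2(intensity + 16) of the mean of 3 control arrays minus the gene's mean over the 3 tissues (red higher, blue lower). The muscle column is red for nearly all collagens and laminins, with COL24A1, COL17A1, COL23A1, MMP16, MMP24 and TIMP2 highest in the brain column.

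In the heated brain, matrix genes were lower where they differed. Of 50 members tested, those whose mean over the 6 arrays reached the median probe set of the tissue, 6 fell and 0 rose at an adjusted p under 0.05 (limma), where 5.74% of all probe sets fell and 6.55% rose. The 6 were the fibrillar collagens COL11A1 and COL27A1, the laminin chains LAMA5, LAMB2 and LAMC1, and MMP15, a membrane-bound metalloproteinase. Before adjustment 10 members were lower and 1 higher with p under 0.05. All heat arrays lay below all control arrays for 11 members and above them for 0, where 18.2% and 18.3% of all probe sets did so. The median member stood at -0.11 log2 units (heat minus control), against -0.00 for all probe sets.

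LAMA5 read 108, 92.0 and 104 on the heat arrays, against 170, 213 and 157 on the control arrays. It fell by 0.73 log2 units (SE 0.13, limma adjusted p = 0.023), and the groups did not overlap. LAMC1, the gamma chain shared by most laminins, read 1309, 1140 and 1284 with heat, against 1876, 1540 and 1634 in controls, and fell by 0.43 (SE 0.11, limma adjusted p = 0.042). LAMB2, a beta chain of vascular and synaptic laminins, read 377, 309 and 328 with heat, against 592, 476 and 427 in controls, and fell by 0.53 (SE 0.14, limma adjusted p = 0.047). By the probe set used for each gene, an alpha, a beta and a gamma chain were thus each lower on every heat array than on any control array. LAMC1 had 2 other tested probe sets, of which 1 moved the same way and 0 were called. The other tested beta chain, LAMB1, stood at -0.25 (limma adjusted p = 0.14). LAMA2 stood at 0.31 (limma adjusted p = 0.32), and neither was called.

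All 9 fibrillar collagens were tested in brain, and by the probe set used for each gene all 9 stood below 0, between -1.04 and -0.10. Other tested probe sets of COL1A2 stood at -0.53, -0.09, 0.10 and 0.23, and those of COL3A1 at -0.15 and 0.05. None of these was called, and the remaining ones of the fibrillar collagens stood below 0. COL27A1 read 116, 83.2 and 87.0 with heat, against 166, 141 and 163 in controls, and fell by 0.64 (SE 0.13, limma adjusted p = 0.029). Its heat mean of 95.5 lay below the brain limit of 96.1, so it was tested through its control arrays. COL11A1 read 618, 471 and 500 with heat, against 727, 798 and 818 in controls, and fell by 0.55 (SE 0.13, limma adjusted p = 0.033). Both genes encode chains best known from cartilage, and both separated the groups completely. The largest difference among the brain members belonged to COL1A1, with 1144, 601 and 496 on the heat arrays, against 1917, 1259 and 1287 on the control arrays. At -1.04 (SE 0.29, limma adjusted p = 0.052) it missed the threshold, although the groups did not overlap; 6 of 11 other processing settings called it. Its partner in type I collagen, COL1A2, stood at -0.41 (limma adjusted p = 0.22).

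MMP15, which acts at the cell surface, read 371, 357 and 418 with heat, against 571, 565 and 571 in controls, and fell by 0.56 (SE 0.10, limma adjusted p = 0.024). The control arrays agreed closely, and every heat array lay below them. COL18A1, the basement membrane collagen that gives rise to endostatin, read 1090, 760 and 669.6 with heat, against 1515, 1204 and 1200 in controls. Its difference of -0.65 (SE 0.18, limma adjusted p = 0.052) was not called. The gelatinases were not called either, with MMP2 at -0.34 (limma adjusted p = 0.26) and MMP9 at 0.04 (limma adjusted p = 0.82). MMP13, an interstitial collagenase, lay below the intensity limit and was not tested; it read 81.5, 40.6 and 46.1 with heat, against 139.5, 82.6 and 137.9 in controls. TIMP2 and TIMP3 stood at -0.20 and -0.33 (limma adjusted p = 0.30 and 0.39).

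**Figure D2:**
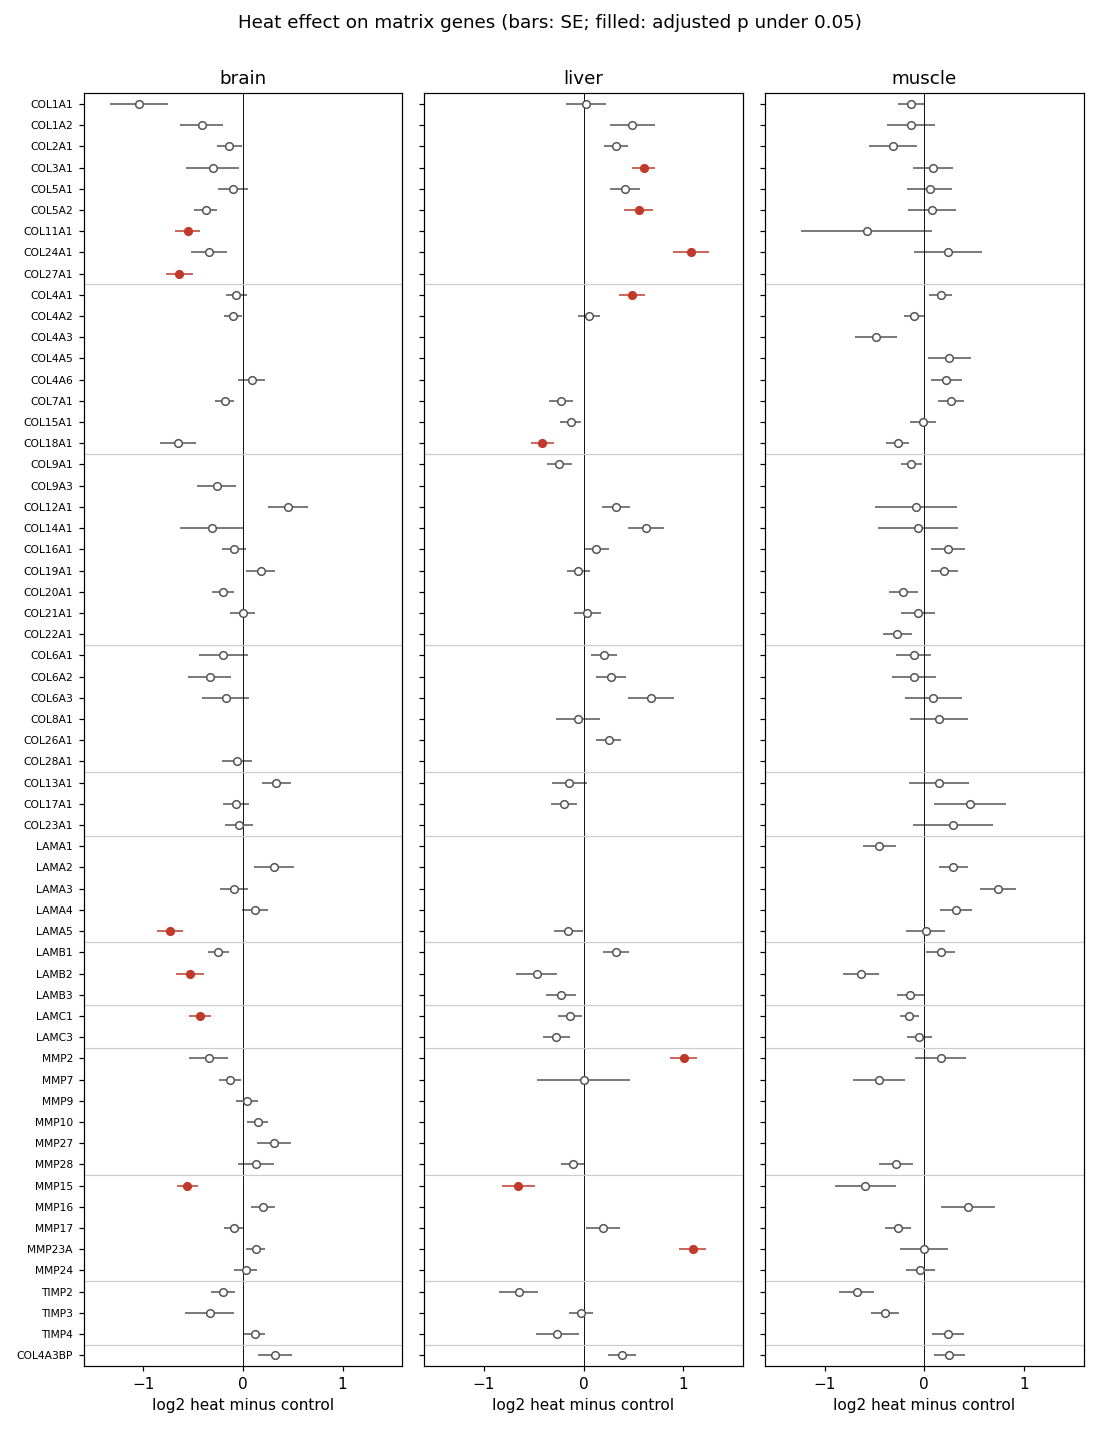
Heat minus control on the log2(intensity + 16) scale for every tested member, grouped by family, in brain, liver and muscle; bars are standard errors and filled red points have an adjusted p under 0.05. Filled points lie only left of 0 in brain (6) and on both sides in liver (6 right, 2 left), and there are none in muscle.

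The brain count depended on single arrays. It was 16 without heat 1, the brain array with the largest share of hepatocyte markers. The 2 heat arrays left, at 0.936% and 2.07%, also lay above the controls in that share. All 16 members were lower, where 12.6% of all probe sets were lower and 10.4% higher. The count was 3 without heat 3 and 0 without heat 2. It was 0 without control 1 or control 3 and 2 without control 2. Without heat 1 the fall of COL1A1 was 1.39 (limma adjusted p = 0.00067) and that of COL18A1 was 0.85 (limma adjusted p = 0.0019), and COL1A2, COL3A1, COL5A2, COL6A2, COL14A1, MMP2, TIMP2 and TIMP3 were also called lower. Heat 1 was also the heat array highest in the meningeal, fibroblast and erythrocyte markers given below, so these calls rest on the arrays lower in them. With 1 value per gene averaged over its probe sets the count was 2. Of the 4 other tested probe sets of called genes, 3 moved the same way and 0 were called; for COL27A1, LAMA5, LAMB2 and MMP15 no other probe set passed the intensity limit.

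Markers of connective tissue and of blood also varied between the brain arrays. Of 7 meningeal markers on the array, 6 were tested and 0 called, with a median of -0.45, and their mean difference from the controls was 0.15, -0.32 and -0.92 on heat 1, 2 and 3. The fibrillar collagens stood at -0.15, -0.49 and -0.66 on the same arrays, and between -0.09 and 0.13 on the controls. Summed meningeal intensity ran between 6480 and 21570 on heat arrays, against 13410 to 18220 on control arrays. Fibroblast markers, of which 6 of 11 were tested and 0 called, stood at 0.40, -0.04 and -0.52. Erythrocyte markers, of which 2 of 4 were tested and 0 called, stood at 0.31, -0.78 and -1.47, with a median of -0.65 and sums of 6031 to 19980 with heat, against 13860 to 20470 in controls. Of 10 tested endothelial markers PECAM1 rose and RAMP2 fell. Among 10 tested hepatocyte markers ALB, FGG and FGB rose, by 4.88, 4.65 and 3.79 (limma adjusted p = 0.024, 0.036 and 0.045). Their control means of 60.4, 18.4 and 42.6 lay below the brain limit of 96.1, so they were tested through their heat arrays. Among 5 tested skeletal muscle markers TNNT3, ACTA1 and MYH1B rose and PVALB fell. TNNT3 and MYH1B, with control means of 73.6 and 52.0, were likewise tested through their heat arrays. PVALB had a control mean of 4423 in brain, so it was not specific to muscle here. Among 8 tested neuronal markers SYT1 rose and SLC32A1 fell, and among 9 tested astrocyte and oligodendrocyte markers CNP fell. Of 11 cartilage, bone and tendon markers on the array, 6 were tested and BGLAP fell. Their mean difference was -0.19, -0.51 and -0.425 on heat 1, 2 and 3, against -0.10 to 0.07 on the controls, with a median of -0.37. In bulk tissue fewer cells of a type and less RNA per cell cannot be told apart. The EEF1A 3'/5' ratio, a measure of RNA integrity, also differed between the brain groups, at 1.32 to 1.4 with heat, against 1.47 to 1.56 in controls. The part of these markers and of RNA integrity in the brain result was not tested.

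**Figure D3:**
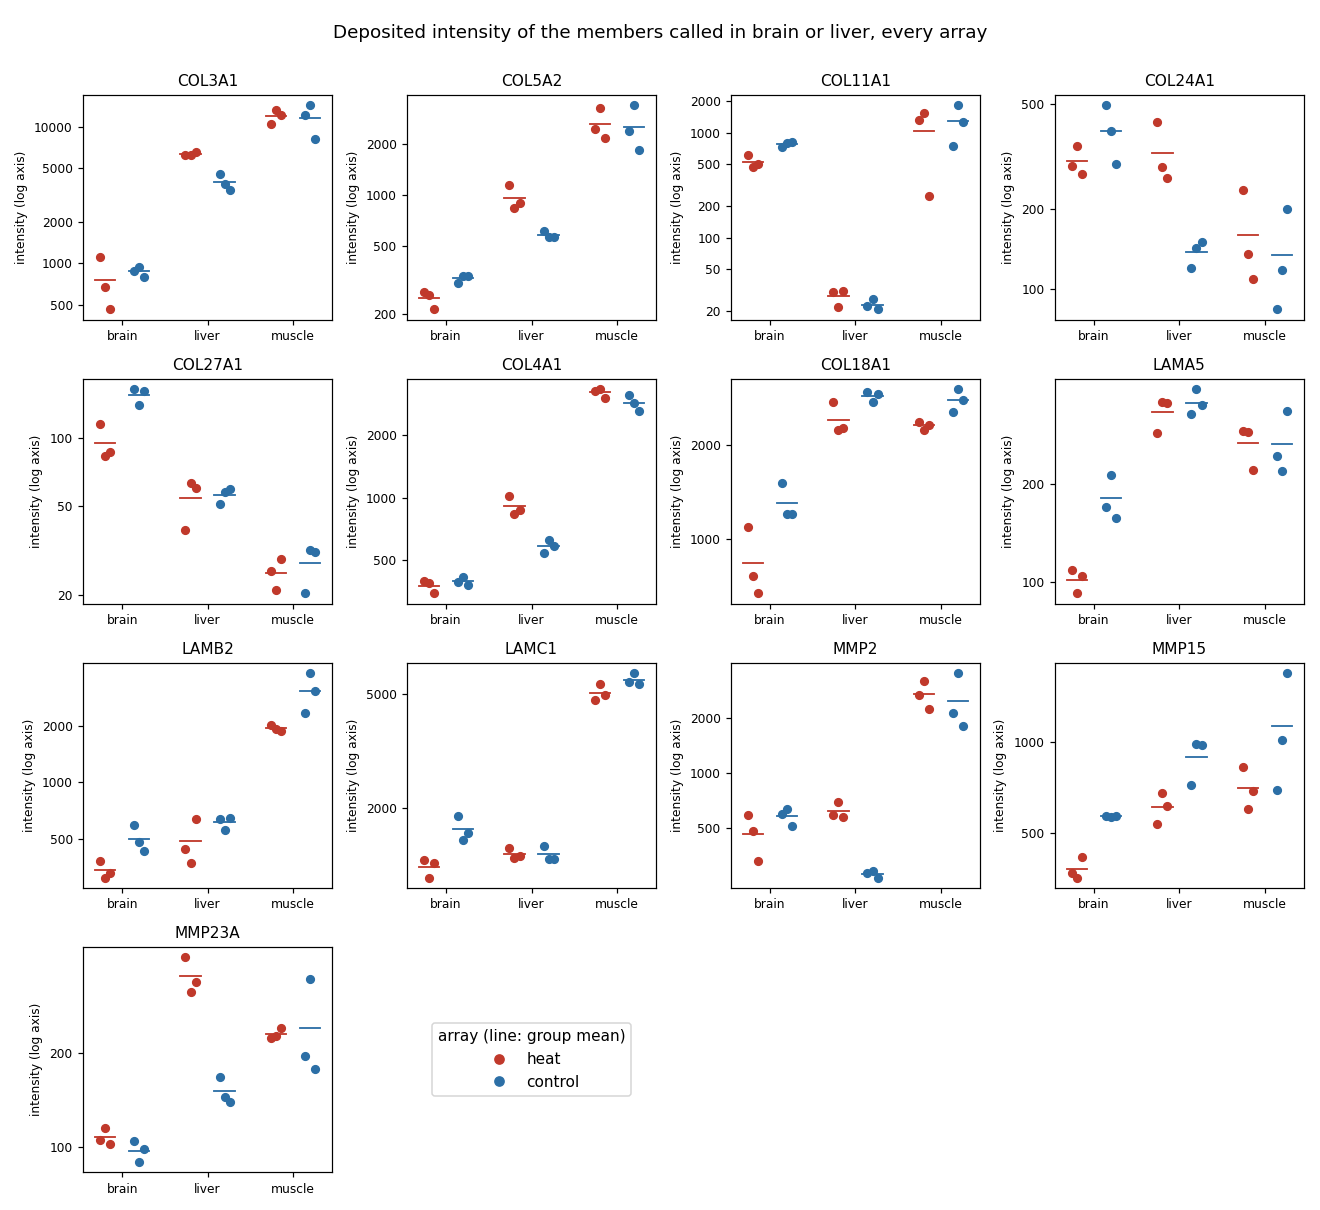
Deposited intensity (log axis) of the 13 members called in brain or liver, one point per array and a line at each group mean, with heat (red) left of control (blue) in each tissue. LAMA5 and MMP15 separate completely in brain, and MMP2 and MMP23A separate in the opposite direction in liver.

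In the heated liver, 4 collagens and 2 metalloproteinases rose. Of 41 members tested after quantile normalization, 6 rose and 2 fell at an adjusted p under 0.05 (limma), where 6.94% of all probe sets rose and 6.13% fell. The genes that rose were COL3A1, COL5A2, COL24A1, COL4A1, MMP2 and MMP23A, and those that fell were MMP15 and COL18A1. All heat arrays lay above all control arrays for 13 members and below them for 5, where 17.7% and 19.4% of all probe sets did so. The median member stood at 0.04, against -0.03 for all probe sets.

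MMP2, the gelatinase that cuts denatured collagen and type IV collagen, read 549, 669.9 and 565 on the heat arrays, against 291, 297 and 274 on the control arrays. It rose by 1.00 log2 units (SE 0.13, limma adjusted p = 0.0064). MMP23A, a membrane-anchored metalloproteinase, read 386, 309 and 337 with heat, against 168, 148 and 141 in controls, and rose by 1.10 (SE 0.14, limma adjusted p = 0.0054). Neither gene showed any overlap between the groups. Both calls held when any single array was left out, with adjusted p between 0.010 and 0.035 for MMP2 and between 0.0069 and 0.031 for MMP23A. MMP15 moved the other way, with 502, 654 and 608 on heat arrays, against 782, 1017 and 1009 on control arrays, a fall of 0.65 (SE 0.16, limma adjusted p = 0.034).

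By the probe set used for each gene, all 7 tested fibrillar collagens stood above 0 in liver, between 0.03 and 1.08. Other tested probe sets of COL2A1, chosen after its values were seen, stood at -0.36 and -0.29. Those of COL1A2 stood at -0.06, -0.10 and 0.48. None of these was called, and the remaining ones of the fibrillar collagens stood above 0. COL3A1, the type III collagen of reticular fibres, read 6083, 6504 and 6132 with heat, against 4561, 4162 and 3616 in controls, and rose by 0.61 (SE 0.11, limma adjusted p = 0.016). Both of its other tested probe sets were called higher as well. No other called liver member had a further probe set that passed the intensity limit. COL5A2, a chain that joins type I fibrils, read 1050, 809.5 and 878 with heat, against 667, 586 and 591 in controls, and rose by 0.55 (SE 0.15, limma adjusted p = 0.040). On the RefSeq assembly these 2 genes are neighbours; their differences were -0.30 and -0.38 in brain and 0.09 and 0.08 in muscle, none of them called. COL24A1 read 403, 281 and 262 with heat, against 118, 146 and 152 in controls, and rose by 1.08 (SE 0.18, limma adjusted p = 0.012), also when any single array was left out. The type I chains were not called, with COL1A1 at 0.03 (limma adjusted p = 0.95) and COL1A2 at 0.49 (limma adjusted p = 0.17).

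Of 5 tested basement membrane collagens in liver 1 rose and 1 fell, both near the threshold. The 2 calls were lost in most or all fits with 1 array left out. COL4A1 read 940.3, 799 and 858 with heat, against 576, 647 and 611 in controls, and rose by 0.49 (SE 0.13, limma adjusted p = 0.042), while its genomic neighbour and partner chain COL4A2 stood at 0.06 (limma adjusted p = 0.77). COL18A1, which hepatocytes make, read 2499, 2243 and 2132 with heat, against 3145, 2973 and 3043 in controls, and fell by 0.41 (SE 0.11, limma adjusted p = 0.046). Each pair of groups was separated for the called genes. The type VI chains COL6A1, COL6A2 and COL6A3 stood at 0.20, 0.27 and 0.68, none of them called (limma adjusted p = 0.31, 0.25 and 0.087). TIMP2, an inhibitor that also takes part in the activation of MMP2, read 902, 1117 and 1549 with heat, against 1658, 1947 and 1908 in controls, a difference of -0.65 that missed the threshold (limma adjusted p = 0.058).

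Under the deposited scaling 9 liver members rose and 0 fell: COL6A3 joined, with COL5A1 and COL14A1, which were chosen after their values were seen, while MMP15 stood at -0.53 (limma adjusted p = 0.066) and COL18A1 at -0.26 (limma adjusted p = 0.21). Over all probe sets the split of higher and lower calls was 1894 to 837 under that scaling, against 1334 to 1178 after quantile normalization. The count was 3 without control 2 or control 3, 4 without heat 1, 5 without heat 3 and 7 without control 1 or heat 2; COL18A1 was called in none of these 6 fits, COL4A1 in 1, COL5A2 and MMP15 in 2 each and COL3A1 in 3.

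Single markers of other cell types were called in liver too. SNAP25, the 1 neuronal marker tested, rose by 1.63 (limma adjusted p = 0.019). Its control mean of 49.7 lay below the liver limit of 82.1, so it was tested through its heat arrays. Among 6 tested astrocyte and oligodendrocyte markers CNP fell by 1.05 (limma adjusted p = 0.0047). Of 7 tested fibroblast markers 2 rose, LUM by 1.00 and DCN by 0.50 (limma adjusted p = 0.030 and 0.045), and summed fibroblast marker intensity was 9291 to 11590 with heat, against 6888 to 8594 in controls. Of 11 tested endothelial markers VWF rose and RAMP2 fell, with sums of 6364 to 9355 with heat, against 5348 to 6578 in controls. Among 5 tested mural cell markers KCNJ8 rose and TAGLN fell, and the median neuronal marker reached 0.945% to 1.48% of its brain level with heat, against 0.755% to 0.816% in controls. Their part in the collagen result was not tested. Skeletal muscle markers reached 0.622% to 1.9% of their muscle level on the liver heat arrays, against 0.577% to 0.818% on the control arrays, and the highest single marker stood at 6.92%. The liver rise of each gene, as a share of its own unheated muscle level, was 8.88% for COL4A1, 11.8% for COL5A2, 12.4% for MMP2, 18.3% for COL3A1, 79.5% for MMP23A and 131% for COL24A1. On heat 1, at 0.622% the lowest of the heat arrays in muscle markers, MMP2 stood 0.89, MMP23A 1.26 and COL24A1 1.44 above the control mean in log2 units. COL5A2 stood 0.76, COL4A1 0.61 and COL3A1 0.59 above it. With 1 heat array there is no measure of spread among heated birds. Heat 1 also had the highest actin 3'/5' ratio of the liver arrays, at 2.77, and the highest neuronal share, at 1.48%. The part of muscle transcripts in the liver rises was not tested.

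**Figure D4:**
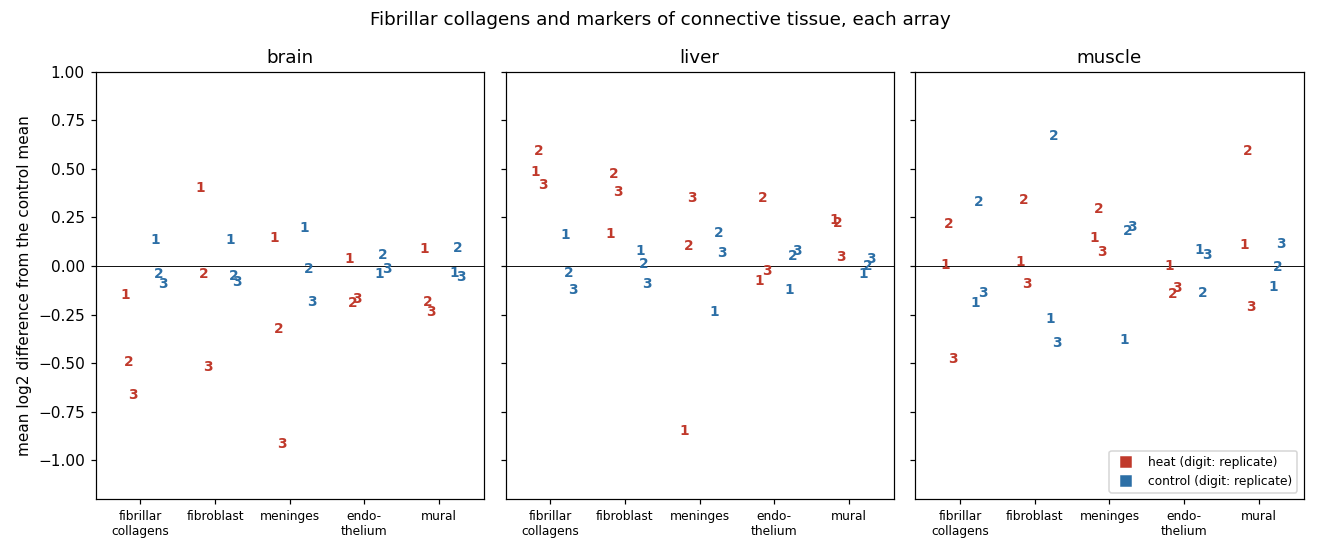
Mean log2 difference from the control mean of the tissue for the fibrillar collagens and for marker lists of fibroblasts, meninges, endothelium and mural cells; each digit is the replicate number of one array, heat in red left of control in blue. In brain heat 3 is lowest and heat 1 highest of the heat arrays for collagens, fibroblast and meningeal markers, and in liver the 3 heat arrays stand above the controls for collagens (0.42 to 0.59) and fibroblast markers (0.16 to 0.47).

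In heated leg muscle no member passed the threshold. Of 53 members tested, 0 were called by limma, where 0.0052% of all probe sets were higher and 0% lower. Before adjustment 4 were lower and 1 higher with p under 0.05. All heat arrays lay above all control arrays for 4 members and below them for 9, where 10.1% and 11.7% of all probe sets did so. TIMP2 read 1065, 884 and 1060 with heat, against 1624, 1948 and 1318 in controls, a difference of -0.68 (SE 0.18, limma adjusted p = 0.15). LAMB2 read 2033, 1928 and 1894 with heat, against 2362, 3848 and 3090 in controls, a difference of -0.64 (SE 0.18, limma adjusted p = 0.17). LAMA3, an alpha chain of epithelial laminin, read 109.6, 182 and 134 with heat, against 82.9, 79.4 and 68.2 in controls, a difference of 0.74 (SE 0.18, limma adjusted p = 0.13). Its control arrays all lay below the muscle limit of 85.1, so it was tested through its heat arrays. The groups did not overlap for any of these 3 genes. TIMP3 stood at -0.40 (limma adjusted p = 0.24).

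Among the laminin alpha chains, LAMA2 averaged 2423 ± 293 with heat and 1973 ± 213 in controls (SD, n = 3 each), a difference of 0.29, and its heat arrays all lay above its controls, as did those of LAMA4, at 0.32 (chosen after its values were seen). Neither was called (limma adjusted p = 0.36 and 0.37).

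The groups overlapped for the main muscle collagens. COL3A1 averaged 12050 ± 1375 with heat and 11620 ± 3191 in controls (SD, n = 3 each), a difference of 0.09 with a 95% interval of -0.38 to 0.55. COL1A1 stood at -0.14, COL4A1 at 0.17 and COL6A1 at -0.10, none of them called. COL11A1 read 1316, 1551 and 249 with heat, against 755, 1837 and 1272 in controls. For this gene heat 3, the muscle array with the largest share of hepatocyte markers, thus stood far below the rest. On heat 3 COL3A1 and COL6A1 read 12240 and 5453, within their control ranges of 8165 to 14460 and 4646 to 7445. COL1A1 read 12400 there, against 13000 to 17500 in controls. The fibrillar collagens as a class stood at 0.00, 0.21 and -0.48 on heat 1, 2 and 3, against -0.19, 0.33 and -0.14 on the controls, and fibroblast markers at 0.02, 0.34 and -0.09, against -0.27, 0.67 and -0.40. In a fit over all 18 arrays 4 muscle members were called, 3 lower and 1 higher, where 5.01% of all probe sets were lower and 4.04% higher, among them TIMP2 (limma adjusted p = 0.028) and LAMB2 (limma adjusted p = 0.0496).

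Whether heat acted differently in the tissues was tested as a difference between heat effects. Between liver and brain 1 of 56 members was called, where 1.7% of all probe sets were. This was MMP2, with 1.00 in liver and -0.34 in brain, a difference of 1.35 (SE 0.31, limma adjusted p = 0.040). The next were MMP23A, with a difference of 0.97, COL4A1 with 0.56 and COL24A1 with 1.42, none of them called (limma adjusted p = 0.057, 0.075 and 0.080). For COL3A1 the difference was 0.91 (limma adjusted p = 0.20), and no fibrillar collagen was called in this test. Between liver and muscle 1 of 54 members was called, where 0.968% of all were: MMP23A, with 1.10 in liver and 0.00 in muscle, a difference of 1.09 (SE 0.24, limma adjusted p = 0.043). The next were COL7A1 with -0.50, MMP2 with 0.84 and MMP17 with 0.46, none of them called (limma adjusted p = 0.15, 0.27 and 0.30). Between muscle and brain 0 of 59 were called by limma, where 0.341% of all were, with 7 at an unadjusted p under 0.05. The smallest p belonged to LAMA1 (-0.72), LAMA3 (0.83), LAMA5 (0.75) and COL7A1 (0.45). LAMA1 read 45.1 to 69.1 in brain, below the limit of 96.1, and entered through muscle. The MMP2 call was kept without brain heat 1, with adjusted p 0.018, and lost without any other array, with adjusted p up to 0.099. The MMP23A call was lost without any 1 of 8 arrays: the 3 liver controls, liver heat 1, liver heat 3 and the 3 muscle heat arrays, with adjusted p up to 0.104.

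Few members kept one direction in every tissue. Of 35 tested in all 3 tissues, 6 were lower with heat in each and 2 higher, where 28.7% and 26.6% of 14525 probe sets were. The 6 were COL18A1, LAMB2, LAMC1, MMP15, TIMP2 and TIMP3, and the 2 were COL4A3BP and MMP23A. COL18A1, at -0.65 in brain, -0.41 in liver and -0.27 in muscle, was the 1 member whose heat arrays lay below all controls in each tissue, as 3.85% of probe sets did. MMP15, at -0.56, -0.65 and -0.59 in the same order, was called in brain and liver. The ceramide transfer gene COL4A3BP stood at 0.33, 0.39 and 0.25 and was called in none. A group of 10 members lay below the intensity limit in all 3 tissues and was not tested: COL4A4, COL6A6, COL8A2, COL9A2, COL10A1, COL25A1, LAMB4, MMP1, MMP3 and MMP13.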

How the data were processed

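Per the labels, total RNA was converted to biotinylated cRNA. The deposited table holds 1 linear intensity per probe set and array. GCOS 1.4 is named, per the submitters' processing notes, without its role, the methods of summarisation, background correction and scaling being not given in the sources used here. Left out were the 96 control probe sets of 38535. Gene names come from GEO's platform annotation, and all 70 members matched a current RefSeq gene.

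Values were analysed as log2(intensity + 16), so folds of dim genes are understated. The deposited scaling was kept where trimmed means (2% removed at each end) lay within 10% (brain, muscle); liver was quantile normalized. Probe sets whose mean log2 value lay below the tissue's median probe set were left out, leaving 19220; the brain limit was 96.1, the liver limit 82.1 and the muscle limit 85.1. The trp controls, a background measure, reached 97.6, so the dimmest tested values lie near background. Precision is limited by the number of arrays. Heat and control were compared by limma 3.58.1 in R 4.3.3 (intensity trend, two-sided, Benjamini-Hochberg over all probe sets, threshold 0.05). Tissue differences were interaction contrasts over 18 arrays, on probe sets that reached the limit in either tissue of the pair. The steps were tested on simulated data.

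The members and the gene lists were chosen with earlier results of these data known. The rule for named genes takes every member called under heat, the 5 highest per unheated tissue, 17 set genes, the 4 smallest p per tissue difference, and up to 4 called genes per list and tissue. The alternatives were other scalings, pseudocounts, filters, array weights, no trend, all arrays in 1 fit, a replicate block, the mean over probe sets and leaving out each array.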

Additional observations from a re-analysis of the deposited data

Results flagged for a closer look

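The heat effect on MMP2 was higher in liver than in brain by 1.35 log2 units (SE 0.31, limma adjusted p = 0.040). The heat effect on MMP23A was higher in liver than in muscle by 1.09 (SE 0.24, limma adjusted p = 0.043). Both differ between tissues by a test of the difference itself, on 3 arrays per group. They were 1 of 56 and 1 of 54 members tested, where 1.7% and 0.968% of all probe sets were called. The MMP2 call was kept without brain heat 1 and lost without any other liver or brain array. The MMP23A call was lost without any 1 of most liver and muscle arrays.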

How the results depend on the processing

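Over 1668 gene results under alternatives, 1509 kept their side of the threshold, 122 lost a call, 37 gained one and 0 called values changed sign; 36 uncalled values did. In brain the 6 calls became 15 with array weights and 2 with the mean over probe sets, and 0 to 16 with 1 array left out. In liver the 8 calls became 5 in the fit over 18 arrays, 16 with array weights, 4 with the mean over probe sets, 0 without heat 2 and 3 (chosen after seeing the data; 1 heat array is left, assumed to vary like the controls) and 3 to 7 with 1 array left out. In muscle the fit over 18 arrays called 4. The liver and brain difference gave 4 calls under the deposited scaling, 2 after quantile normalization, 2 with a pseudocount of 64 and 0 to 3 with 1 array left out. The muscle and brain difference gave 0 to 2 with 1 array left out. The liver and muscle difference gave 0 with a pseudocount of 1 and 0 to 1 with 1 array left out. The unheated counts stayed within 1.5 times. The causes were not tested.

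Replicate numbers showed no consistent pairing: same-numbered heat and control arrays correlated between -0.45 and 0.37 in their deviations. The highest, liver replicate 2, compared with -0.265 to -0.067 for its pairs with other numbers. The lowest, muscle replicate 1, compared with 0.165 to 0.324. With the replicate block the counts were 2 in brain, 9 in liver, 0 in muscle and 0 for the liver and muscle difference.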

Other observations

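Single companion genes of the matrix were called in liver, where 6.94% of all probe sets rose and 6.13% fell, and in brain, where 6.55% rose and 5.74% fell. In the heated liver SERPINH1, the collagen chaperone also known as HSP47, rose by 0.63 (limma adjusted p = 0.017), and SEC24D, a coat protein of collagen export, fell by 0.67 (limma adjusted p = 0.031); the other 20 of 22 tested genes of collagen synthesis were not called. Of 20 tested matrix glycoproteins and proteoglycans, 4 rose and 1 fell in liver: POSTN, an adhesive protein of remodelling tissue, rose by 0.96, and AGRN, a basement membrane proteoglycan, fell by 0.77 (limma adjusted p = 0.018 and 0.019). LUM, DCN and THBS4 were the others that rose. The THBS4 control mean of 75.2 lay below the liver limit of 82.1, so it was tested through its heat arrays.

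In the heated brain P4HA2, a prolyl hydroxylase of collagen, rose by 0.79 and LOXL1, a crosslinking enzyme, fell by 0.53 (limma adjusted p = 0.020 and 0.042). Of 21 tested glycoproteins and proteoglycans, 3 fell: THBS4, FMOD and BCAN. The THBS4 heat mean of 94.0 lay below the brain limit of 96.1, so it was tested through its control arrays. Among 17 tested matrix receptors ITGAV rose by 0.34 and ITGB5 fell by 0.54 (limma adjusted p = 0.044 and 0.029). ADAM10, a membrane sheddase, rose by 0.41 in brain and 0.48 in liver (limma adjusted p = 0.032 and 0.031). By limma 0 of 16 tested genes of the TGF-beta axis were called in brain and in liver.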
